A study of Mus musculus with 3 samples.

Results

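Hair shaft cortex and cuticle precursors are the keratinocytes of the lower hair follicle that are about to build the fibre itself. In the 3 single-cell libraries of C3H/HeN mouse dorsal skin examined here, 700 of 26847 barcodes that passed the quality limits were taken as such cells (2.61%, exact 95% Clopper-Pearson interval 2.42 to 2.81). They were chosen by their own counts. A barcode had to have at most 10% of its unique molecular identifiers (UMIs) from mitochondrial genes and at least 200 genes. It also needed at least 3 UMIs of the shaft keratin gene Krt35, a UMI of at least 2 of the 4 further shaft genes Krt86, Dsg4, Hoxc13 and Selenbp1, at least as many UMIs of Krt35 as of the inner root sheath keratin genes Krt71 and Krt73 together, and no UMI of the leukocyte gene Ptprc. Since these counts chose the cells, the levels of those 8 genes are described below and support nothing.

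The hair shaft grows from the matrix, a pool of fast dividing keratinocytes wrapped around the dermal papilla. Cells that leave the matrix at its centre exit the cell cycle, switch on hair keratins in a fixed order, and finally fill themselves with keratin-associated proteins that cross-link the keratin filaments of the cortex, while neighbours further out form the inner root sheath. WNT signalling through LEF1, together with the homeodomain protein HOXC13, is known to drive hair keratin genes, and the follicle bulb is the site at which immune cells gather in alopecia areata (AA).

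All mice were 25-week-old female C3H/HeN animals, and each library came from the pooled dorsal skin of 7 to 8 animals. The group Neg held unaffected control mice, which the labels also call vehicle controls. The group AA held mice of the alopecia areata model, in which, per the study, lymph node cells are injected into a recipient. The group AA+Ab held mice of the same model that were given an antibody neutralizing the chemokine CXCL12. Libraries were made from whole digested skin after a density gradient, so how many shaft cells entered a library also depends on how well the hair bulb came apart. With 1 library per group, a difference between libraries cannot be told apart from a difference between conditions, no test across mice was possible, and every interval given here covers counting error only.

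The libraries held 6965 to 10879 barcodes and 121289374 to 141998364 UMIs. After the limits, 6582 barcodes were left in Neg, 10433 in AA and 9832 in AA+Ab. Pairs of libraries had 17 to 28 barcode sequences in common, and no barcode sequence belonged to a hair shaft precursor in both libraries of a pair. The median depth of all barcodes that passed was 13694.5 UMIs in Neg, 11177 in AA and 11371 in AA+Ab.

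Hair shaft precursors made up 3.28% of the barcodes in Neg (216 cells, interval 2.86 to 3.74), 2.12% in AA (221 cells, 1.85 to 2.41) and 2.67% in AA+Ab (263 cells, 2.37 to 3.01). The share was thus highest in Neg and lowest in AA. Inner root sheath cells, defined by at least 3 UMIs of Krt71 and Krt73 together and more of these than of Krt35, numbered 325, 253 and 262 in the same order. For each inner root sheath cell there were 0.665 shaft precursors in Neg, 0.874 in AA and 1.00 in AA+Ab, so the order of the libraries differed from that of the share of all barcodes. Depth moved with the share, as a median shaft precursor held 28571.5 UMIs and 5393 genes in Neg, 19347 UMIs and 4525 genes in AA, and 23732 UMIs and 4793 genes in AA+Ab. A deeper cell reaches 3 UMIs of Krt35 more easily. Barcodes with at least 5000 UMIs were also thinned to 5000 before the rule was applied, and shallower ones were left out. Of those thinned, 1.88% passed in Neg, 1.18% in AA and 1.55% in AA+Ab, a different base from that of the shares above.

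Krt35 encodes a type I hair keratin that appears early in the cortex and cuticle. A median precursor held 25 UMIs of it in Neg, 18 in AA and 22 in AA+Ab. The lowest value was 3 in each library, and the highest was 623, 559 and 379 UMIs. Summed over the precursors and divided by all their UMIs, which gives CPM (UMIs of a gene per 1e6 UMIs), Krt35 stood at 1881 CPM in Neg, 1838 in AA and 1976 in AA+Ab, and ranked 96th, 93rd and 96th among all genes of these cells. At the edge of the rule, the 42 precursors with exactly 3 UMIs of Krt35 held 873 CPM of Lef1, 252 of Hoxc13, 66.9 of Selenbp1 and 16.5 of Dsg4. The 49 barcodes that met every other condition with 2 UMIs held 762, 277, 37.9 and 28.4 CPM of the same genes.

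**Figure D1:**
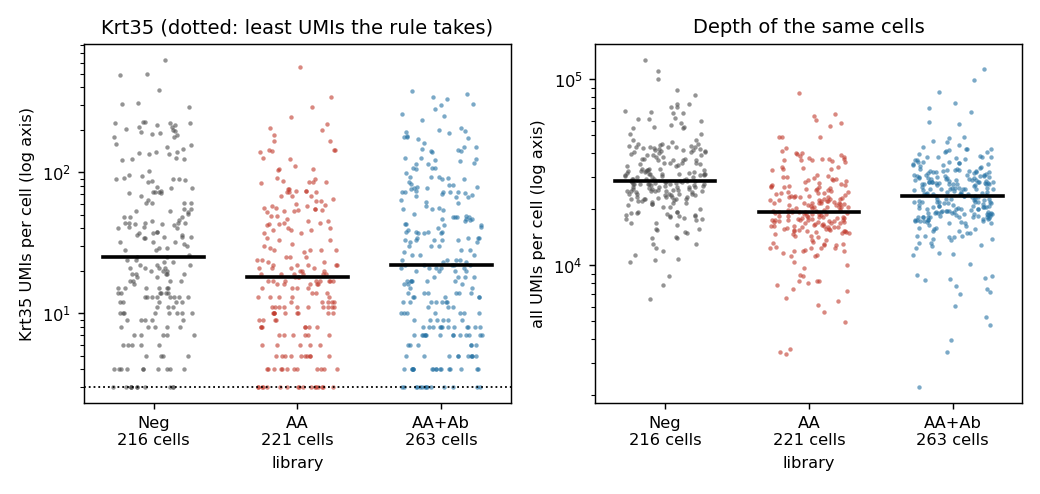
Each point is 1 hair shaft precursor, plotted by library, with its Krt35 UMIs on the left and all its UMIs on the right, both on log axes. Bars mark medians (25, 18 and 22 UMIs of Krt35, and 28571.5, 19347 and 23732 UMIs in all), and the dotted line marks the 3 UMIs of Krt35 that the rule asks for.

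Free RNA in the droplets adds UMIs to cells that do not express a gene. Of the T cells, which should lack hair keratins, 5.02% had a UMI of Krt35 in Neg, 5.5% in AA and 7.11% in AA+Ab, at median depths of 5547, 4568 and 4657 UMIs. Krt35 in T cells came to 65.5 CPM in Neg, 8.80 in AA and 74.6 in AA+Ab. Matrix progenitors, taken as cells with a UMI of Shh and of a further matrix gene and under 3 UMIs of Krt35 and of Krt71 and Krt73 together, stood at 8.09, 7.99 and 8.73 CPM. The precursors stood far above all of these, as the rule required.

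The other genes of the rule followed the same cells. Krt86, a type II hair keratin gene, stood at 33.3 CPM in Neg, 47.0 in AA and 69.1 in AA+Ab. Dsg4, which encodes the desmosomal cadherin of the hair cortex, stood at 59.5, 101 and 69.1 CPM. Hoxc13 was at 277, 341 and 341 CPM, and Selenbp1, which encodes a selenium-binding protein, at 641, 461 and 311 CPM. Between Neg and AA+Ab, Krt86 and Selenbp1 were about as far apart and in opposite directions, with log2 ratios of 1.05 (0.83 to 1.29) and -1.04 (-1.12 to -0.97). All 4 further markers were found together in 63, 52 and 79 cells.

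The name of these cells was checked against genes that the rule did not use. S100a3, which encodes a calcium-binding protein of the hair cuticle and cortex, stood at 109 CPM in Neg, 176 in AA and 149 in AA+Ab, against 13.5, 11.1 and 41.3 CPM in inner root sheath cells and 1.92, 2.17 and 2.82 CPM in basal keratinocytes. Basal keratinocytes were defined by at least 3 UMIs of Krt5 and 10 of Krt14 and no UMI of Krt35, Krt71, Krt73, Krt75 or Shh. Lef1, the transcription factor of WNT signalling, was at 743, 1072 and 766 CPM in the precursors, at 137, 171 and 128.5 CPM in inner root sheath cells and at 20.1, 30.7 and 24.6 CPM in basal keratinocytes. Matrix progenitors were nearer to the precursors, with 559.5 CPM of Lef1 in Neg, 732 in AA and 645 in AA+Ab. The cortex keratin genes Krt31, Krt33a, Krt33b, Krt34, Krt36, Krt81 and Krt83 together reached 56.5, 27.5 and 111 CPM in the precursors, at most 1.85 CPM in inner root sheath cells, and 4.97, 5.997 and 6.96 CPM in T cells. Keratin genes of the cuticle (Krt32, Krt39, Krt40 and Krt82) did not mark these cells. They summed to 10.4, 9.52 and 5.49 CPM in the precursors and to 17.4, 15.4 and 16.7 CPM in basal keratinocytes. Krt32 had 43, 15 and 15 UMIs, Krt82 had 3, 2 and 3, and Krt40 had 0 in all 3 libraries, which allows up to 3 UMIs in each. The cortex keratin sums rested on few cells, as 3 cells held 61.1%, 28.6% and 59.7% of their UMIs, 36.6%, 26.7% and 35.7% of precursors had any UMI of them, and the median cell was at 0 CPM. S100a3 and Lef1 stood above inner root sheath cells and basal keratinocytes in each library, whereas the cuticle keratin genes did not stand above basal keratinocytes, so the cells are called hair shaft precursors below.

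Markers of other cells were also present in the precursors. Basal epidermis markers (Krt5, Krt14, Krt15, Col17a1 and Itgb4) summed to 2549 CPM in Neg, 1223 in AA and 1919 in AA+Ab, with 5 of 5 genes detected. T cells of the same libraries, which should lack them, held 7089, 3834 and 5017 CPM of these markers, more than the precursors did. The median depths of these T cells were 5547, 4568 and 4657 UMIs, against 28571.5, 19347 and 23732 in the precursors. CPM at such unlike depths cannot show whether the precursors held more of these UMIs per cell than free RNA or attached cells give. Suprabasal markers (Krt1, Krt10, Lor and Krtdap) summed to 1034, 557 and 1082 CPM, and 3 cells held 70.3%, 69.5% and 78.4% of those UMIs. Melanocyte markers (Pmel, Dct, Tyr, Tyrp1 and Mlana) summed to 217, 62.3 and 96.1 CPM, and 3 cells held 60% of them in Neg. T cells, at their lower depth, held 175, 96.8 and 197 CPM of the melanocyte markers. The 7 T cell markers had 67, 23 and 46 UMIs in all, of which 3 cells held 34.3%, 47.8% and 50%, with a log2 ratio of -0.99 (-1.74 to -0.29) for AA against Neg. The 6 myeloid markers had 24, 11 and 13 UMIs. The defining T cell gene Cd3e had 7, 1 and 2 UMIs, the macrophage gene Lyz2 had 2, 3 and 2, and the collagen gene Col1a1 had 2, 6 and 1, while Ptprc was at 0 by the rule. A doublet caller trained on artificial doublets took 33 of 216 precursors in Neg, 17 of 221 in AA and 30 of 263 in AA+Ab. Of all barcodes past the limits it took 5.58%, 8.7% and 8.4%, so precursors of Neg were taken more often than barcodes of Neg at large. It found 56.0%, 71.0% and 74.3% of the artificial doublets that had been added to each library. With called doublets left out, the genes at least 2-fold lower in AA than in Neg fell from 203 to 89 in number. The part of such cells in the single differences below was not tested beyond leaving out called doublets and the 3 leading cells of each library, the latter chosen after the data had been seen.

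The type I keratin genes of the inner root sheath were not restricted to it. Krt25 stood at 250.5 CPM in Neg, 210.3 in AA and 285 in AA+Ab in the shaft precursors, against 1439, 1630 and 1212 CPM in inner root sheath cells. At least 1 UMI of Krt25, Krt27 or Krt28 was found in 196 of 216, 182 of 221 and 244 of 263 precursors. UMIs of these 3 type I genes outnumbered those of their type II partners by 10.1 to 1 in Neg, 92.1 to 1 in AA and 74.3 to 1 in AA+Ab. In inner root sheath cells the ratios were 1.06, 1.17 and 1.26 to 1. The rule capped Krt71 and Krt73, so the excess itself is a property of the choice, but the type I genes were free to vary. The contrast of Neg with AA rested in part on few cells. The ratio of Krt71 for AA against Neg was 0.125 with all cells and 0.36 without the 3 leading cells of each library. In T cells Krt25 stood at 58.8, 18.0 and 113 CPM, below the precursors in each library.

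Shaft genes lie in keratin clusters. In build GRCm38, Krt35 spans chr11:100092193-100096241 on the minus strand, between Krt31 (chr11:100046646-100050551) and Krt36 (chr11:100102007-100105626) in the type I cluster, all 3 being protein-coding and on the same strand. Krt86 lies at chr15:101473478-101479986 on the plus strand and Hoxc13 at chr15:102921103-102928814. Krtap8-1 and Krtap7-1 lie at chr16:89487379-89487952 and chr16:89507703-89508323, both on the minus strand. Selenbp1, Krt36 and Krtap8-1 were highest in the high range of Krt35, described below, in all 3 libraries. Krt31 was highest there in Neg and AA+Ab, and had 2 UMIs in the middle and 2 in the high range of AA. Krt31 and Krtap8-1 were also confined to few cells or far apart between libraries. The promoters of these 4 genes are shown. Each is 300 bases long, from 250 before the start site to 50 after it, and so ends inside the gene. They were taken from RefSeq for build GRCm38.p6 and are written along the strand of the gene, with matches to 3 motifs in capitals.

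Krt31: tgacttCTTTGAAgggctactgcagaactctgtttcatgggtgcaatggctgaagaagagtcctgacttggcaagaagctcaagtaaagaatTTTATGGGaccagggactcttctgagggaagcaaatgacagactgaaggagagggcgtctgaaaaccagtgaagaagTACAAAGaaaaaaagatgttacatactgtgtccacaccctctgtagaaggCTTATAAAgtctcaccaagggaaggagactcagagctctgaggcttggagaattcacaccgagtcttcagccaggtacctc
Krtap8-1: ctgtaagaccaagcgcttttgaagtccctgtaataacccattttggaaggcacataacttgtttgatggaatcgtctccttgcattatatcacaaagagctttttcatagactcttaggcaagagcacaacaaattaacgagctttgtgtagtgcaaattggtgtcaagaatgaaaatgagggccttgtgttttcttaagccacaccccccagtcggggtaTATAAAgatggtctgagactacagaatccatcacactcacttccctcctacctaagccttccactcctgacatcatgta
Krt36: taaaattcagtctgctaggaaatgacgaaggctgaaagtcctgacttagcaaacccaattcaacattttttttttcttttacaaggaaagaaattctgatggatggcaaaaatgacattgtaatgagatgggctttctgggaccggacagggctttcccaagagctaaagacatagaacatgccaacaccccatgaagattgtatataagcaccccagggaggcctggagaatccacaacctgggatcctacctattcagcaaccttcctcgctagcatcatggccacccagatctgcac
Selenbp1: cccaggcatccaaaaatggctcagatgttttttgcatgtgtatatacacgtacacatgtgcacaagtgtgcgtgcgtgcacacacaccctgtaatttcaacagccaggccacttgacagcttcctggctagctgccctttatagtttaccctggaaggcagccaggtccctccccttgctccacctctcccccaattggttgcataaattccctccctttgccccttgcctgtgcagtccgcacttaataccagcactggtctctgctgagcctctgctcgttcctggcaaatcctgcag

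These windows are chr11:100050502-100050801 (minus strand) for Krt31, chr16:89487903-89488202 (minus) for Krtap8-1, chr11:100105577-100105876 (minus) for Krt36 and chr3:94932833-94933132 (plus) for Selenbp1. The motifs searched were the TATA box TATAAA on the strand of the gene, a LEF1 motif (CTTTG followed by AA, AT, TA or TT) on both strands, and a HOXC13 motif (TTTATN or TTAATN followed by AA, AG, GA or GG) on both strands. Among 32851 promoters of that length, 8.32% held the TATA box, 16.9% the LEF1 motif and 18.9% the HOXC13 motif. Krt31 held all 3, with the TATA box 29 bases before the start, LEF1 matches beginning 244 and 81 bases before it, and HOXC13 matches 158 and 31 bases before it, the last of which overlaps the TATA box. Krtap8-1 held the TATA box alone, also 29 bases before the start. These letters were not found in the windows of Krt36 and Selenbp1. A match is a description of the sequence and was not tied to binding.

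Many genes differed between cells with more and cells with less Krt35 in the same direction in all 3 libraries. To describe this, the precursors were put into 3 ranges by their Krt35 CPM, cut at 487 and 1820 CPM so that the pooled cells were divided evenly. The cut was chosen after the data had been seen, and 60 of the 700 cells lay within 10% of a cut, so these are ranges of 1 measure and not cell types. The low range held 75 cells in Neg, 67 in AA and 92 in AA+Ab, and the high range held 74, 75 and 84. Median depth was 32951, 24650 and 27411 UMIs in the low range and 24642.5, 17687 and 20752.5 UMIs in the high range.

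Proliferation genes were lower in the high than in the low range of Krt35. The 20 G2/M genes, which drive and carry out mitosis, summed to 3149 CPM in the low range and 1687 in the high range of Neg, 3704 and 1054 in AA, and 4152 and 652 in AA+Ab. The middle range stood at 3364, 2892 and 3044 CPM, which in Neg was above the low range. The 17 S phase genes went from 1279 to 604 CPM in Neg, from 1398 to 389 in AA and from 1505 to 287 in AA+Ab. The ratio of high to low range for G2/M genes was 0.536 in Neg, 0.285 in AA and 0.157 in AA+Ab, so the contrast was smallest in Neg. Growth genes, which serve ribosome and polyamine synthesis, varied less, with ratios of 0.936, 0.758 and 0.737.

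Genes of the matrix and of the cells around it were also lower in the high range. Wnt5a, which encodes a secreted WNT ligand, went from 109.5 CPM to 18.9 in Neg, from 141 to 23.7 in AA and from 147 to 17.4 in AA+Ab. Wif1, which encodes a secreted WNT inhibitor of the matrix, went from 32.5 to 11.8, from 105 to 6.65 and from 54.7 to 6.64 CPM. Dcn, which encodes the proteoglycan decorin, went from 375 to 27.4, from 523 to 27.3 and from 520.0 to 26.1 CPM. Dcn is counted here as a fibroblast marker, yet the fibroblast gene Col1a1 was at or below 1.91 CPM in every range, and Dcn reached 1254 CPM in Neg and 1600.0 CPM in AA+Ab in the matrix progenitors. T cells held 210.1, 72.4 and 214 CPM of Dcn, more CPM than the high range of Krt35 did, though at a lower depth. Cxcl14, Crabp1, Vcan, Serpinh1 and Krt25 also had ratios of high to low range under 0.5 in all 3 libraries, as did Krt17, and all but Cxcl14, Krt25 and Krt17 were singled out after their values had been seen.

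Shaft genes went the other way. Selenbp1 went from 147 to 1308 CPM in Neg, from 132 to 879 in AA and from 93.5 to 606 in AA+Ab, and Dsg4 from 17.1 to 107, from 30.9 to 171 and from 17.4 to 126 CPM. Both belong to the rule, which asked only for their presence. S100a3 went from 25.9 to 196, from 58.7 to 426 and from 51.9 to 370.0 CPM, which are ratios of 7.56, 7.26 and 7.13. Krt36, a type I keratin gene of the cortex, was at 3.15, 0 and 0.396 CPM in the low range and at 38.2, 34.0 and 37.8 CPM in the high range. The levels of Krt36 in the high range thus lay between 34.0 and 38.2 CPM, although the libraries differed in Krt31, Krt33a and keratin-associated protein genes, described below.

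Further genes that followed Krt35 were picked after their values had been seen. Dapl1, which encodes a protein linked to epithelial differentiation, went from 301 to 2466 CPM in Neg, from 169 to 2131 in AA and from 159 to 2740 in AA+Ab. Adh6b, an alcohol dehydrogenase gene, went from 2.45 to 203, from 13.6 to 184 and from 4.76 to 255 CPM, and the metallothionein gene Mt4 from 294 to 897, from 265 to 883 and from 188 to 946 CPM. Foxn1, the transcription factor gene mutated in nude mice, went from 14.0 to 35.4, from 11.01 to 42.9 and from 6.34 to 37.3 CPM. Lef1 had ratios of 1.33, 1.40 and 1.31, and Msx2, a homeobox gene of the matrix and shaft, of 0.876, 0.889 and 0.921, so these regulators varied far less along Krt35 than the shaft genes did. Other genes did not keep 1 direction. The ratios of high to low range were 0.523 in Neg, 0.383 in AA and 1.76 in AA+Ab for the basal keratin gene Krt14, and 0.511, 0.297 and 1.66 for Gata3, a transcription factor gene of the inner root sheath. They were 0.510, 0.372 and 1.06 for basal epidermis markers and 0.640, 0.717 and 1.18 for MHC class I genes. Cells of 1 library share their source, and these ratios carry no test.

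**Figure D2:**
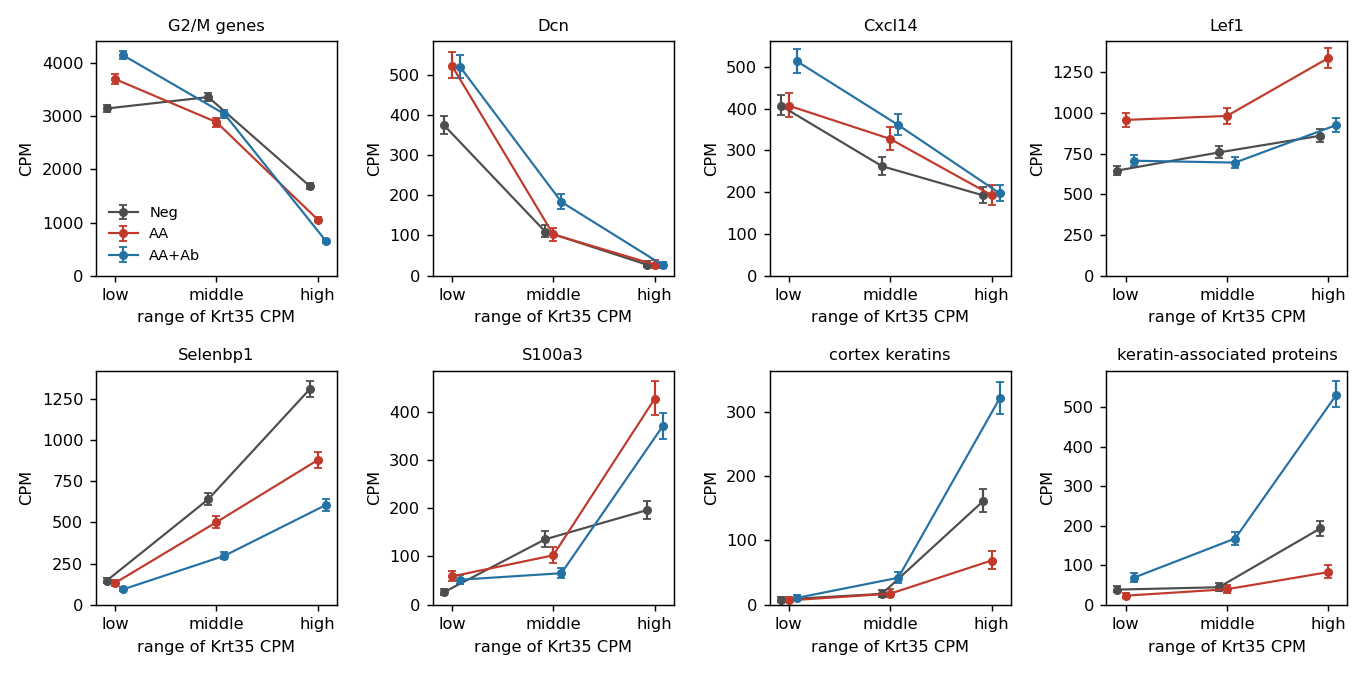
Summed CPM of gene lists and genes in the low, middle and high ranges of Krt35 (x axis) in each library, with 95% Poisson intervals. G2/M genes were lowest in the high range of each library (1687, 1054 and 652 CPM), and Selenbp1 and S100a3 were highest there.

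Some shaft genes were found in few cells of each library. Krt31 and Krt33a encode type I keratins of the cortex, and Krtap7-1 and Krtap8-1 encode keratin-associated proteins. Krt31 had 152 UMIs in 4 cells of Neg, 4 UMIs in 2 cells of AA and 266 UMIs in 8 cells of AA+Ab. Krt33a had 46, 12 and 231 UMIs in 5, 5 and 11 cells. Krtap7-1 had 146, 11 and 338 UMIs in 6, 3 and 18 cells, and Krtap8-1 had 250, 88 and 901 UMIs in 27, 16 and 68 cells. In these sums all 4 genes were lowest in AA and highest in AA+Ab. For Krt33a the order of Neg and AA rested on 3 cells, as its log2 ratio for AA against Neg was -1.38 with all cells and 0.55 without the 3 leading cells of each library.

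Counted by cells, 9 of 216 precursors in Neg (4.17%, interval 1.92 to 7.76), 4 of 221 in AA (1.81%, 0.495 to 4.57) and 15 of 263 in AA+Ab (5.70%, 3.23 to 9.23) held at least 10 UMIs of the 4 genes together. The intervals of AA and AA+Ab overlapped, and the sums rested on few cells: 3 cells held 78.6% of these UMIs in Neg, 49.6% in AA and 57.5% in AA+Ab. The cells with at least 10 UMIs had a median of 2377 CPM of Krt35 in Neg, 6956 in AA and 7353 in AA+Ab, against 976, 937 and 885 CPM in the remaining precursors. Their median depths were 37358, 19639 and 29332 UMIs, against 28571.5, 19347 and 23732 over all precursors. A cutoff of 10 UMIs is reached more easily in deeper cells, and the part of depth in this order was not tested. In T cells, Krt31 had 0 UMIs in all 3 libraries, and Krtap8-1 had 15, 1 and 29, found in 2.93%, 0.25% and 3.05% of them. Krtap8-1 thus had the same order of libraries in T cells as in the precursors, and the part of free RNA in that order was not tested.

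**Figure D3:**
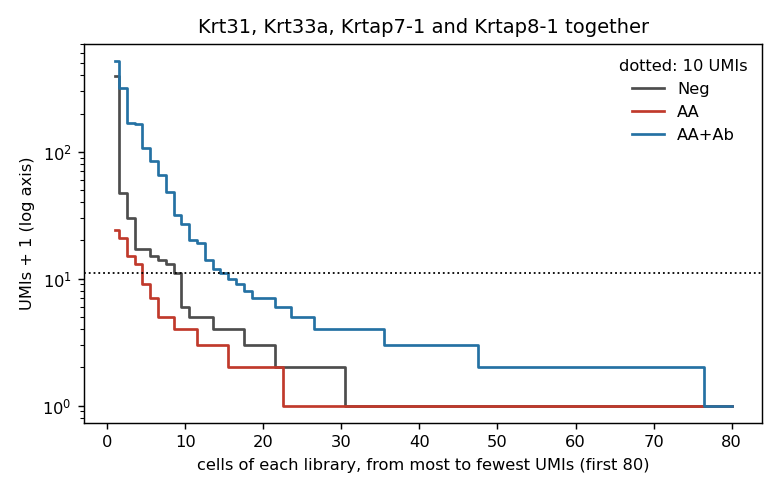
UMIs of Krt31, Krt33a, Krtap7-1 and Krtap8-1 together, plus 1, on a log axis, for the 80 cells of each library that held the most, in descending order. The line of AA+Ab lies above both others down to the 76th rank. In AA+Ab 76 cells hold a UMI, against 30 in Neg and 22 in AA, and 15, 9 and 4 cells reach the dotted line at 10 UMIs. Ranks 48 to 76 of AA+Ab hold 1 UMI each. The UMIs are not scaled by the depth of the cells.

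The keratin-associated protein genes had 57 members in the files, of which 19 had a UMI in the precursors. Together they stood at 86.5 CPM in Neg, 45.1 in AA and 236.5 in AA+Ab. The log2 ratio was -0.94 for AA against Neg (interval -1.17 to -0.71), 2.39 for AA+Ab against AA (2.19 to 2.60) and 1.45 for AA+Ab against Neg (1.32 to 1.59). Without the 3 leading cells of each library the ratios were -0.44, 2.08 and 1.64, so each kept its sign. Of the 6 genes that passed the minimum of 50 UMIs over both libraries, 4 were at least 2-fold higher in AA+Ab than in AA and 0 lower, against 0.859% higher and 1.89% lower of all genes tested. The hair keratin genes other than Krt35 and Krt86 summed to 80.3, 50.5 and 136 CPM, and here the leading cells mattered more. Their log2 ratio for AA against Neg was -0.67 (-0.89 to -0.45), and -0.08 without the 3 leading cells. For AA+Ab against AA it was 1.43 (1.23 to 1.64), and 0.67 without those cells.

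Other hair keratin genes were less far apart between AA and Neg. Krt87 had 92, 62 and 130 UMIs in 65, 46 and 76 cells, and its log2 ratio for AA against Neg was -0.02 (-0.50 to 0.46). Krt83, a type II partner, stood at 9.58 CPM in Neg, 8.28 in AA and 18.8 in AA+Ab, with -0.21 (-0.81 to 0.37) for AA against Neg and 1.19 (0.66 to 1.74) for AA+Ab against AA. Krt81 stood at 4.51, 5.38 and 6.97 CPM, and Krt36 at 14.2, 10.6 and 11.6 CPM, with counting intervals for AA against Neg that included 0.

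Among structural genes of the fibre, S100a3 was higher in AA than in Neg (log2 ratio 0.69, 0.54 to 0.83) and lower in AA+Ab than in AA (-0.24, -0.38 to -0.11). In Neg, 3 cells held 46.8% of its UMIs, and without the leading cells the ratios were 1.04 and 0.00. Padi3, which encodes an enzyme that converts arginine of hair proteins to citrulline, stood at 9.58, 17.0 and 12.2 CPM, and Tgm3, which encodes a cross-linking transglutaminase, at 18.9, 19.9 and 16.9 CPM. The counting interval of the log2 ratio of Tgm3 included 0 in each comparison.

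Regulators of the shaft programme were present in nearly every cell. Lef1 had a UMI in 216 of 216, 220 of 221 and 261 of 263 cells. Its log2 ratio was 0.53 for AA against Neg (0.47 to 0.58), -0.48 for AA+Ab against AA (-0.54 to -0.43) and 0.04 for AA+Ab against Neg (-0.01 to 0.10), so it was higher in AA than in both other libraries. Cux1, which encodes a homeodomain protein of the follicle, had the same order at 398, 554 and 446 CPM. Dlx3 (119, 143 and 122 CPM) was also highest in AA, while Msx2 (169, 174 and 180 CPM) was nearly level and Ovol1, a repressor gene downstream of WNT signalling, was lowest in AA+Ab at 186, 172 and 134 CPM. Gata3, a regulator of the inner root sheath that was named after its values were seen, was lower in AA than in Neg, at 80.2, 34.1 and 43.0 CPM. Over the 10 shaft transcription factors, all 10 of which passed the minimum of 50 UMIs over both libraries, 0 were at least 2-fold higher and 1, Gata3, was at least 2-fold lower in AA than in Neg, against 0.86% and 1.98% of all genes tested. Their median log2 ratio was 0.19, against 0.045 over all genes tested.

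Genes of the signals that the bulb receives were compared by lists. The 7 hedgehog genes summed to 219.6 CPM in Neg, 326 in AA and 278 in AA+Ab, with log2 ratios of 0.57 (0.47 to 0.67), -0.23 and 0.34 for AA against Neg, AA+Ab against AA and AA+Ab against Neg. Ptch1, both a receptor and a target of the pathway, stood at 56.4, 103 and 78.6 CPM, and the target Gli1 at 10.1, 17.2 and 12.5 CPM. Of the 5 hedgehog genes that passed the minimum, 0 were 2-fold apart between AA and Neg, which is near the background of 0.86% higher and 1.98% lower. The 11 WNT genes summed to 506, 619 and 565 CPM. Of the 9 that passed the minimum, Wif1 and Nkd1 were at least 2-fold higher in AA than in Neg, and 0 were lower, against 0.86% higher and 1.98% lower of all genes tested. Wif1 stood at 21.3, 54.4 and 27.4 CPM, and 3 cells held 43.0% of its UMIs in AA. Nkd1, an inhibitor induced by WNT signalling that was also named after its values were seen, stood at 10.7, 23.8 and 10.4 CPM and was spread over 54, 76 and 53 cells. Axin2, another target, had 28.05, 37.7 and 38.0 CPM. Among BMP and Notch genes, the BMP target Id3 stood at 1086, 822 and 795 CPM, the Notch target Hes1 at 383, 351 and 251 CPM, and the Notch ligand gene Jag1 at 241, 320.4 and 234 CPM. Jag1 was thus highest in AA, like Lef1, whereas Id3 was highest in Neg.

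Over all genes, few were far apart between libraries. Of 10236 genes with at least 50 UMIs over both libraries, 88 (0.86%) were at least 2-fold higher in AA than in Neg and 203 (1.98%) at least 2-fold lower. Of 10009 genes in AA+Ab against AA, 86 (0.859%) were higher and 189 (1.89%) lower, and of 10433 genes in AA+Ab against Neg, 52 (0.498%) were higher and 233 (2.23%) lower. These counts depended on the processing. With thinning and with doublets left out, the minimum was applied to the UMIs that remained. Fewer genes were then tested, so the numbers below are not shares of the totals above. After thinning to 5000 UMIs, 58 genes were higher and 34 lower in AA than in Neg, 26 higher and 135 lower in AA+Ab than in AA, and 27 higher and 73 lower in AA+Ab than in Neg. With called doublets left out, 89 were higher and 89 lower in AA than in Neg. With all cells and UMIs, the median log2 ratio over the genes tested was 0.045, -0.076 and -0.031 in the 3 comparisons. Any 2 of these comparisons share a library. When each gene was counted without its 3 leading cells in each library, 64, 184, 65, 147, 45 and 192 of those genes were still past 2-fold in the same direction.

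The genes farthest above Neg in AA were Tchh, Igfbp5, Bmp6, Csta1, Mapk4, Sct, Irf9, Col5a2, Sh3rf3 and Hecw2. Igfbp5, which encodes a binding protein of insulin-like growth factors, had 15, 77 and 29 UMIs in 12, 23 and 14 cells, with a log2 ratio of 2.91 (2.10 to 3.82). Irf9, which encodes a subunit of the interferon-activated complex ISGF3, had 26, 74 and 35 UMIs in 23, 49 and 25 cells, with 2.06 (1.40 to 2.77), and 2.14 without its leading cells. Bmp6, which encodes a BMP ligand, had 11, 41 and 35 UMIs. Tchh, which encodes trichohyalin of the inner root sheath and medulla, had 45, 289 and 232 UMIs, but 3 cells held 96.2% of them in AA. Its log2 ratio of 3.24 became -0.69 without those cells. Csta1 behaved alike, with 84.8% of its AA UMIs in 3 cells and a ratio of 2.27 that became 0.55.

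The genes farthest below Neg in AA were Akr1c18, Npy, Krt31, Slc45a2, Tyr, Krt73, Srrm4os, Slc24a5, St3gal6 and Olfr655. Of these, Slc45a2, Tyr and Slc24a5 serve pigment synthesis in melanocytes. In Neg, 3 cells held 82.8%, 77.2% and 69.8% of their UMIs. Slc24a5 had 96, 5 and 29 UMIs, and its log2 ratio of -3.71 was still -3.30 without the leading cells. Akr1c18 had 68 UMIs in 1 cell of Neg and 1 UMI in each other library. Without the 3 leading cells, the melanocyte markers had a log2 ratio of -0.59 in place of -1.80 for AA against Neg, and of 0.05 in place of -1.18 for AA+Ab against Neg. The sum of the melanocyte markers therefore rested on 3 cells of Neg. Krt73, which the rule capped, had 105, 4 and 6 UMIs, with 87.6% in 3 cells of Neg.

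Between AA+Ab and AA, the genes farthest up were Krt31, Cdsn, Krtap7-1, Gm11571 and Krt33a. The log2 ratios of Krt31 and Krtap7-1 were 5.57 (4.20 to 7.46) and 4.46 (3.60 to 5.48). Cdsn, which encodes corneodesmosin of the cornified layer, had 57 UMIs in 3 cells of AA+Ab and 1 UMI in AA. The genes farthest down were Isg15, Gm36037, Krt16, Chn2 and Areg. Isg15, a ubiquitin-like protein gene induced by interferon, had 83, 104 and 15 UMIs in 46, 33 and 14 cells, with a log2 ratio of -3.27 (-4.16 to -2.49). Krt16, a keratin gene induced by wounding and inflammation, stood at 15.2, 50.1 and 8.30 CPM. Its log2 ratio was 1.72 (1.39 to 2.06) for AA against Neg and -2.59 (-3.04 to -2.17) for AA+Ab against AA. Against Neg, AA+Ab was highest in Tchh, Lmo2, Krt33a, Krt26 and Smpd3. Krt26, an inner root sheath keratin gene, had 19, 29 and 89 UMIs in 14, 13 and 25 cells. The lowest were Akr1c18, Srrm4os, Slc45a2, Krt73 and Npy, all of which had at least 82.8% of their Neg UMIs in 3 cells.

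**Figure D4:**
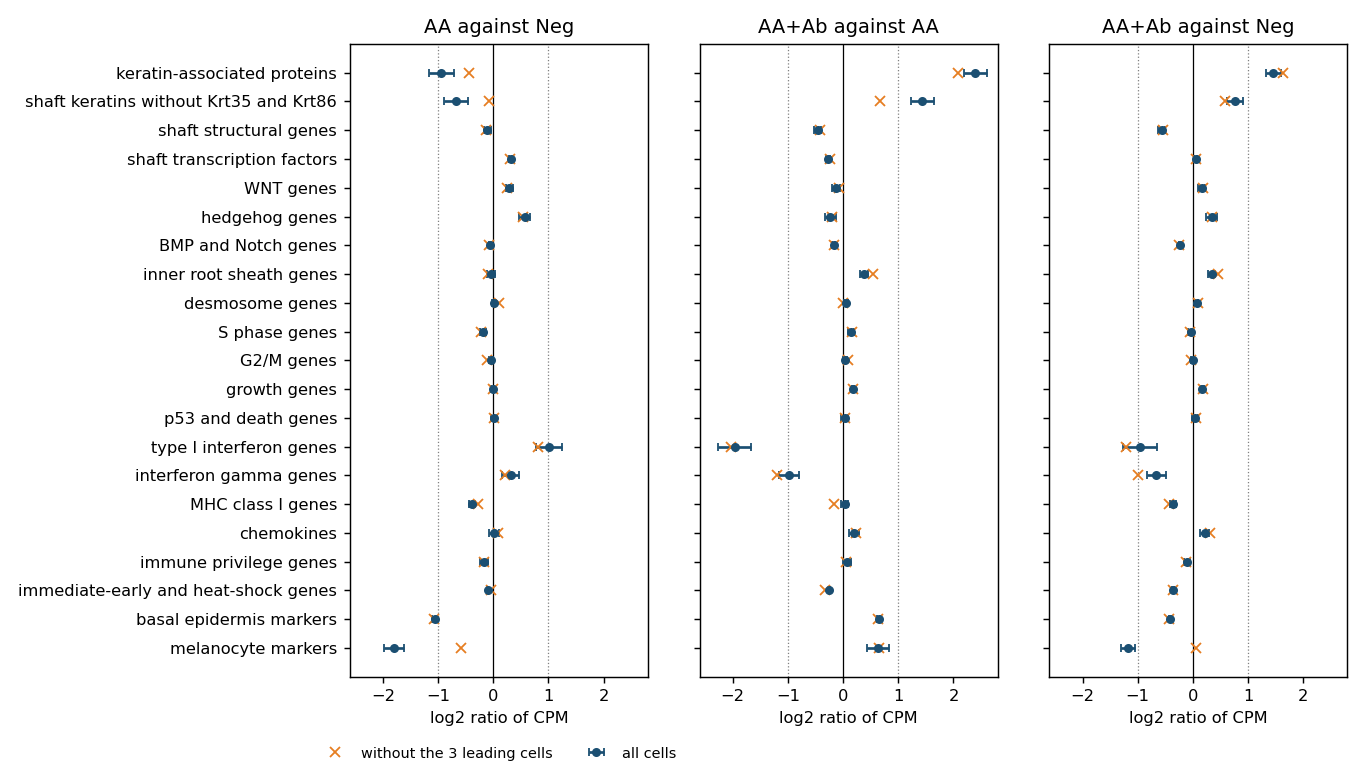
Log2 ratios of summed CPM for gene lists in hair shaft precursors, in 3 comparisons, with 95% counting intervals (points and bars), and without the 3 leading cells of each library (crosses). Keratin-associated proteins (-0.94, 2.39 and 1.45) and type I interferon genes (1.01, -1.96 and -0.95) lie far from 0, whereas G2/M, growth and desmosome genes lie near it.

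Summed levels of proliferation and growth genes were close between the libraries. G2/M genes summed to 2776 CPM in Neg, 2698 in AA and 2764 in AA+Ab, and S phase genes to 1052, 925 and 1021 CPM. All 37 cell cycle genes passed the minimum in each comparison and 0 were past 2-fold in either direction, against 0.498% to 2.23% of all genes tested in 1 direction, so a count of 0 is near the background. The sums hid a difference between cells, as a median precursor held 2510 CPM of G2/M genes in Neg, 509 in AA and 782 in AA+Ab. A UMI of the proliferation genes Mki67 or Top2a was found in 88.9% of precursors in Neg, 71.5% in AA and 72.6% in AA+Ab. After thinning to 5000 UMIs, which left out 0, 4 and 4 cells, the shares were 69.9% (63.3 to 75.9), 58.5% (51.7 to 65.2) and 59.5% (53.2 to 65.5). In inner root sheath cells the thinned shares were 80.2%, 81.8% and 83.3%. No order is read from these shares, since the summed levels did not follow them. Growth genes summed to 4170.2, 4148 and 4696 CPM, desmosome genes to 2135, 2159 and 2237 CPM, and genes of p53 and cell death to 773, 780.0 and 795 CPM, of which 0 were 2-fold apart between AA and Neg. Ripk1, which encodes a kinase of cell death and inflammation, had 96, 66 and 104 UMIs and a log2 ratio of 0.01 (-0.46 to 0.48) for AA against Neg. It was named here because the study deals with it.

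Interferon genes were counted next, since interferon gamma from T cells is central to AA. The interferon gamma list summed to 102 CPM in Neg (interval 95.02 to 110.05), 127 in AA (117 to 138) and 64.5 in AA+Ab (58.6 to 70.9). The log2 ratio was 0.31 (0.16 to 0.47) for AA against Neg, -0.98 (-1.16 to -0.80) for AA+Ab against AA and -0.67 (-0.84 to -0.49) for AA+Ab against Neg. The first of these turned to -0.13 when cells with at least 5000 UMIs were thinned to that depth, so the data do not fix its direction. Only 4 of the 19 genes in the files passed the minimum. Irf1, a transcription factor gene induced by interferon, stood at 23.8, 30.8 and 12.6 CPM. Cxcl10, which encodes a chemokine that draws T cells, stood at 56.2, 54.8 and 34.0 CPM, and 54.6% of its UMIs in AA+Ab lay in 3 cells. The order of the libraries was thus AA, Neg, AA+Ab for Irf1, and Neg and AA did not differ beyond counting error for Cxcl10.

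The type I interferon list summed to 37.6 CPM in Neg, 75.7 in AA and 19.4 in AA+Ab, with log2 ratios of 1.01 (0.78 to 1.24), -1.96 (-2.26 to -1.67) and -0.95 (-1.27 to -0.65). Bst2, which encodes the antiviral protein tetherin, stood at 5.64, 14.3 and 4.89 CPM, and Xaf1, a gene linked to apoptosis, had 10, 36 and 5 UMIs. Without the 3 leading cells of each library the list ratios were 0.81, -2.03 and -1.21. Of the 23 genes listed, 21 were in the files and 3 passed the minimum in each comparison.

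The same lists were set beside other keratinocytes of the same libraries. For AA against Neg, the interferon gamma list had a log2 ratio of 0.31 in the precursors, 0.83 in inner root sheath cells (0.68 to 0.99), 0.96 in matrix progenitors (0.84 to 1.08) and 1.79 in basal keratinocytes (1.75 to 1.84). The counting intervals of the precursors and the other 3 classes did not overlap, although no test of the difference between classes was possible with 1 library per group. As given above, the ratio in the precursors turned negative after thinning, and thinned ratios of the other classes are not given. Cxcl10, which was level between Neg and AA, also made up much of this list in the precursors. No difference between the classes is therefore read from these intervals. In AA, the list stood at 127 CPM in the precursors, 107 in inner root sheath cells, 385 in matrix progenitors and 365 in basal keratinocytes. For AA+Ab against AA the ratios were -0.98, -1.03, -0.80 and -1.0. For type I genes in AA against Neg they were 1.01 in the precursors, 0.68 in inner root sheath cells, 1.26 in matrix progenitors and 1.5 in basal keratinocytes.

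MHC class I genes, which present peptides to CD8+ T cells, were lower in the precursors than in basal keratinocytes and matrix progenitors. They summed to 934 CPM in Neg, 714 in AA and 729.8 in AA+Ab. Basal keratinocytes held 4694, 5628 and 5155 CPM, and matrix progenitors 1295, 1618 and 1248 CPM. Inner root sheath cells were not above the precursors in every library, so low levels are not read as particular to the shaft lineage. The log2 ratio for AA against Neg was -0.39 (-0.45 to -0.33) in the precursors and 0.26 (0.25 to 0.27) in basal keratinocytes, with -0.07 in inner root sheath cells and 0.32 in matrix progenitors. Without the 3 leading cells it was -0.27 in the precursors. Between Neg and AA the median precursor went the other way, with 374 CPM in Neg, 440.0 in AA and 298 in AA+Ab, and 3 cells held 17.3%, 10.52% and 21.7% of the UMIs. After thinning to 5000 UMIs, 81.0%, 91.7% and 75.3% of precursors had a UMI of these genes, so the direction between AA and Neg depended on the measure. B2m, the light chain common to class I molecules, stood at 216, 168 and 175 CPM, H2-K1 at 220.0, 161 and 167 CPM and H2-D1 at 182, 113 and 128 CPM. Of the 16 class I genes that passed the minimum, 0 were 2-fold higher or lower in AA than in Neg, with a median log2 ratio of -0.42 against 0.045 over all genes. Basal epidermis markers moved with this result, at 2549, 1223 and 1919 CPM in the precursors, and their part in it was not tested.

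**Figure D5:**
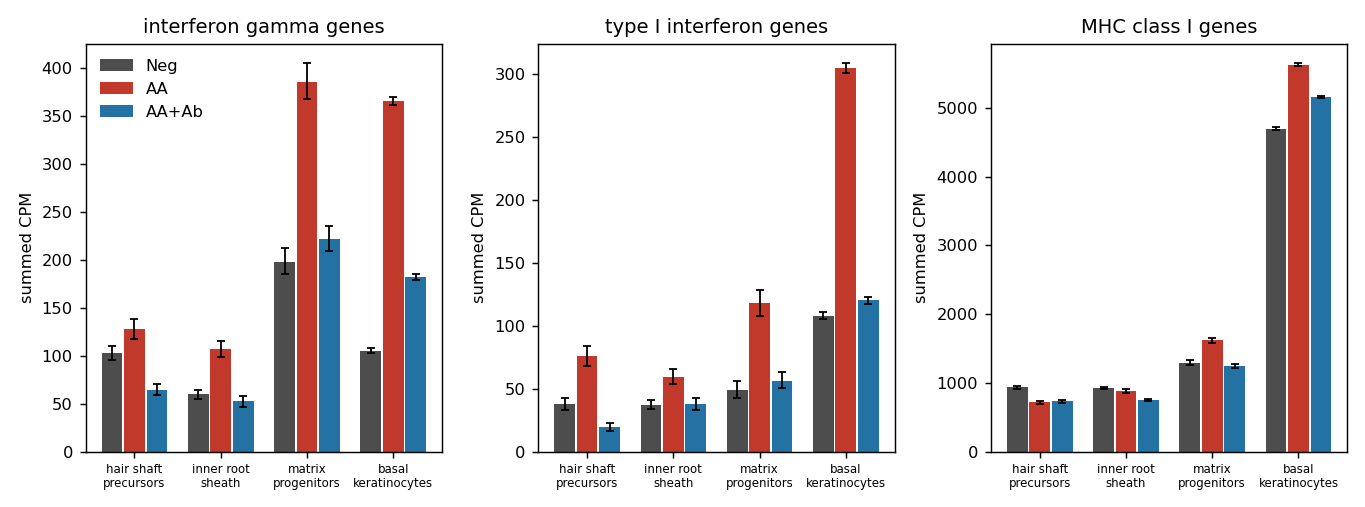
Summed CPM of interferon gamma genes, type I interferon genes and MHC class I genes in 4 keratinocyte classes of each library, with 95% Poisson intervals. In hair shaft precursors MHC class I genes stood at 934, 714 and 729.8 CPM, the lowest or next to lowest of the 4 classes, while basal keratinocytes reached 5628 CPM in AA.

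MHC class II genes were scarce, with 105, 96 and 92 UMIs over 7 genes. Ligands of the receptor NKG2D and interleukin 15 had 63, 34 and 53 UMIs over 7 genes, of which 4 had any. Among genes of immune privilege, Mif, which encodes a cytokine that inhibits natural killer cells, stood at 618, 543 and 574 CPM. Cd200, which encodes an inhibitory ligand of the follicle, had 16, 4 and 5 UMIs, and Tgfb1 stood at 37.5, 40.6 and 35.3 CPM. The list summed to 666, 591 and 619 CPM, and none of its 3 genes past the minimum was 2-fold apart in any comparison.

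Because the antibody binds CXCL12, the genes of that axis were read in these cells. Cxcl12 had 26, 14 and 15 UMIs, or 3.66, 2.90 and 2.22 CPM, in 15, 8 and 8 cells. Its receptor gene Cxcr4 had 1 UMI in each library. Ackr3, which encodes a scavenging receptor of CXCL12, had 119, 29 and 62 UMIs in 37, 19 and 26 cells, with a log2 ratio of -1.48 for AA against Neg (-2.12 to -0.89) and 0.62 for AA+Ab against AA (-0.04 to 1.30). A difference in Cxcl12 or Cxcr4 was not detectable at this depth. The most abundant chemokine gene was Cxcl14, which encodes a chemokine of epithelia, at 299.8, 321 and 371 CPM.

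The heat-shock genes Hspa1a and Hsph1 were lowest in AA+Ab. Hspa1a, which encodes an inducible HSP70, stood at 900.1 CPM in Neg, 885 in AA and 294 in AA+Ab, Hsph1 at 160.0, 260.5 and 68.2 CPM, and Hsp90aa1 at 1027, 1493 and 814 CPM. Hspa1a and Hsph1 were singled out after their values had been seen. Hspa1a was also lowest in AA+Ab in inner root sheath cells (868, 819 and 332 CPM), matrix progenitors (598, 819.6 and 291 CPM) and basal keratinocytes (497, 409 and 223 CPM). Of the 16 immediate-early and heat-shock genes, 2 were at least 2-fold lower in AA+Ab than in AA, and 0 were higher, against 1.89% lower and 0.859% higher of all genes tested. These genes respond to tissue digestion, and the handling of the 3 skins cannot be told apart from the groups.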

How the data were processed

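Single-cell libraries (10x Chromium 3′ chemistry) were made from pooled dorsal skin, 1 per group. Per the labels and the submitters' processing notes, the authors ran FastQC 0.11.7 and Cell Ranger 7.2.0 against mouse build mm10, and deposited UMI count matrices of called cells. From these counts, barcodes were filtered, classed and summed per library in Python 3.11.15 (scikit-learn 1.9.0, pandas 2.3.3, scipy 1.17.1, numpy 2.4.6), and plotted with matplotlib 3.10.9. Levels are CPM of summed counts with exact Poisson 95% intervals, shares have Clopper-Pearson intervals, and ratios have exact conditional intervals. All cover counting error only. A gene was counted as apart at 2-fold or more with at least 50 UMIs over both libraries. No p-value was computed. The members and gene lists were chosen with earlier results of these data known. Named genes were those of the rule, up to 6 genes with the most UMIs in each list (3 for lists of other cell types), the 10 highest and 10 lowest ratios for AA against Neg and the 5 highest and 5 lowest for the other comparisons; others are said to be named after their values were seen. Doublets were scored against artificial ones at 0.8% per 1000 barcodes and kept, and leaving them out was an alternative. A planned division of the cells by keratin-associated protein share was not used, as 418 of 700 cells held none. Other alternatives were thinning to 5000 UMIs, other minimums and limits, other scalings, leaving out shared barcodes and leaving out the 3 leading cells. The ratio step was checked on simulated data. Genes missing from the matrices (Krt74, Krt85, Cxcl11 and those of the type I interferon list, of which 21 of 23 were found) were not analysed here. A gene of the interferon gamma list is not reported here.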

Additional observations from a re-analysis of the deposited data

Results flagged for a closer look

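Summed MHC class I genes differed in direction between cell classes. In hair shaft precursors their log2 ratio for AA against Neg was -0.387 (counting interval -0.447 to -0.328), whereas in basal keratinocytes of the same libraries it was 0.262 (0.254 to 0.269). The median precursor went against its sum, at 374 CPM in Neg and 440.0 in AA. Summed chemokine genes also went opposite ways for AA+Ab against AA, at 0.193 (0.105 to 0.282) in the precursors and -0.131 (-0.152 to -0.11) in basal keratinocytes. In the precursors most UMIs of this list were of Cxcl14, so the sum there mainly reads that gene. Only 3 of the 9 chemokine genes passed the minimum for this comparison in the precursors. Each group was 1 library, so neither difference was tested across mice.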

How the results depend on the processing

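No paired analysis was possible because each group was 1 library. With the rule applied to barcodes thinned to 5000 UMIs, shallower ones left out, the share of precursors was 1.88% in Neg, 1.18% in AA and 1.55% in AA+Ab. With at least 5 UMIs of Krt35 the share of all barcodes past the limits was 1.84% in AA and 2.36% in AA+Ab. Genes at least 2-fold higher in AA than in Neg numbered 58 after thinning, 201 with a minimum of 20 UMIs and 2154 with 1 UMI; the lower ones numbered 34, 437 and 3488, and 89 with called doublets left out. For AA+Ab against AA the higher ones numbered 26, 230 and 2539, and the lower ones 394 and 2894 with the 20 and 1 UMI minimums. For AA+Ab against Neg they were 27, 136 and 2066 higher and 73, 497 and 3393 lower. Interferon gamma genes had log2 ratios of -0.128 for AA against Neg after thinning, of -1.31, -1.28 and -1.2 for AA+Ab against AA (Krt35 at least 5 UMIs, mean of the CPM of each cell, without the 3 leading cells), and of -0.922, -1.01, -1.26 and -0.988 for AA+Ab against Neg (Krt35 at least 5 UMIs, mean cell CPM, thinning, without the leading cells). Shaft keratins other than Krt35 and Krt86 had -0.931, -0.106, -0.0266 and -0.0777 for AA against Neg (mitochondrial limit of 5%, mean cell CPM, thinning, without the leading cells), 0.95 and 0.665 for AA+Ab against AA (thinning, without the leading cells), and 0.492, 1.41, 0.565, 0.923 and 0.587 for AA+Ab against Neg (mitochondrial limit, mean cell CPM, equal weight of maturity ranges, thinning, without the leading cells). Among the directions that turned without the 3 leading cells, a setting chosen after seeing the data, were melanocyte markers for AA+Ab against Neg (0.0543), Tchh for AA against Neg (-0.687) and Krt33a for AA against Neg (0.55). The causes were not tested. Thinning leaves fewer UMIs and so fewer genes past the minimum. Lower minimums let more genes in, so the counts of genes past 2-fold under these settings have unlike bases. Depth limits genes under 50 UMIs, which include most interferon genes and cuticle keratins.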
